A study of Mus musculus with 18 samples.

Results

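The genes described here were 41 genes of the lysosome, taken by symbol from a fixed list of lysosomal enzymes, membrane proteins and regulators, and all 41 were found among the 15052 genes of the liver RNA-seq table. They comprised 9 proteases, 12 glycosidases, 4 sulfatases, 6 lipid hydrolases or their activators, 6 membrane proteins, 2 genes of the proton pump, the granulin precursor gene *Grn* and the transcription factor gene *Tfeb*. RNA came from whole liver of 18 separate mice in 4 groups, WT and *Apoe* KO mice that were either pair-fed or EtOH-fed. All mice were 10 to 12 weeks old and had 5 days on liquid control diet first. EtOH-fed mice (5 WT and 4 *Apoe* KO, the latter numbered 1, 2, 4 and 5) then had 5% (v/v) ethanol in this diet over 10 days, were gavaged with ethanol at 5 g/kg on day 11 and were killed 9 hours later. Pair-fed mice (4 WT and 5 *Apoe* KO) received an isocaloric diet without ethanol for 10 days and a gavage of dextrin-maltose at 9 g/kg. The knockout was constitutive and not limited to any liver cell type. In whole liver, fewer cells of a type and less RNA per cell cannot be told apart.

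The lysosome is the acidic compartment in which cells break down proteins, sugar chains, lipids and nucleic acids taken up from outside or delivered by autophagy. Its hydrolases are made in the endoplasmic reticulum, sorted by mannose 6-phosphate or other receptors and activated at the low pH set up by the vacuolar proton pump, while heavily glycosylated membrane proteins line its inner face. TFEB and its relatives bind a short E-box motif in the promoters of many lysosomal genes and raise their transcription. In liver both hepatocytes and macrophages hold many lysosomes, and macrophages digest lipoproteins and dead cells in them.

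Promoter sequence, from 250 bases before to 50 after the transcription start, was found in the RefSeq table of build GRCm38.p6 for 37 of the 41 genes, and for all but *Asah1*, *Atp6v1h*, *Ctsb* and *Ctsh*. The letters CACGTG, which read the same on both strands, were in at least 1 listed promoter of 13 of these 37 genes (35.1%) and of 8.09% of all 27025 genes of that table. Counted by promoter, they were in 13 of 43 (30.2%) against 7.15% of all 32851. These 13 were *Arsa*, *Cln3*, *Ctsa*, *Ctsd*, *Ctsl*, *Gaa*, *Gla*, *Glb1*, *Lamp1*, *Lgmn*, *Mcoln1*, *Naglu* and *Sgsh*. The longer form TCACGTGA, which contains CACGTG, was in 5 of the 37 (13.5%) against 1.12% of all genes. The related letters TCATGTGA, searched on both strands so that TCACATGA was also found, were in 4 of the 37, namely *Gla*, *Grn*, *Ppt1* and *Tpp1* (10.8%), against 1.15% of all genes. Stretches of 100 bases from 7 of these promoters are printed 5′ to 3′ on the strand of the gene, with the matched letters in capitals. *Ctsl*, *Lgmn*, *Arsa*, *Grn* and *Ctsd* are shown as examples whose expression passed the test in at least 1 comparison. *Lamp1* and *Mcoln1* are examples that hold several matches and passed in none. *Ctsa*, *Gaa*, *Gla* and *Sgsh* also held a match and passed in a comparison but are not printed.
Ctsl, chr13:64370671-64370770, minus strand: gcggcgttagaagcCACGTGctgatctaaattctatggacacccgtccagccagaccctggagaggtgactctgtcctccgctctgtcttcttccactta
Lgmn, chr12:102439093-102439192, minus strand: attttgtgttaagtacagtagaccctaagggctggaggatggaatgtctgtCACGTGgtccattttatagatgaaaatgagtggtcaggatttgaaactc
Arsa, chr15:89477425-89477524, minus strand: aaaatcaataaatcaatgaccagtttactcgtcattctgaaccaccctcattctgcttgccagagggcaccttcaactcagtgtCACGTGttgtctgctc
Grn, chr11:102430257-102430356, plus strand: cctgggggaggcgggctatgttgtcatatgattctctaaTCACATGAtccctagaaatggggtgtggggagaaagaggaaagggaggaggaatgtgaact
Ctsd, chr7:142387873-142387972, minus strand: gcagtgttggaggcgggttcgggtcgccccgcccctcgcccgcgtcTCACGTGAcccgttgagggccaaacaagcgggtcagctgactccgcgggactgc
Lamp1, chr8:13159061-13159160, plus strand: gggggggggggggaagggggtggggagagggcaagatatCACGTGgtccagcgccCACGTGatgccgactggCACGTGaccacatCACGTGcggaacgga
Mcoln1, chr8:3500414-3500513, plus strand: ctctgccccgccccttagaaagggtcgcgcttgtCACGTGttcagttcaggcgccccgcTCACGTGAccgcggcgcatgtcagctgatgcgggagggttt
*Lamp1* held 4 copies of CACGTG, which began 61, 45, 28 and 15 bases before its transcription start. *Ctsd* held a further CACGTG upstream of the stretch shown. *Lgmn*, *Ctsa* and *Cln3* each had 2 listed promoters, of which 1 held CACGTG, and the *Lgmn* promoter farther upstream had no match. A match describes these letters only and is not evidence of binding.

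The values were read counts normalised by the authors and rounded, with a total of 32267493 to 32292618 in every mouse. In 9 mice the spacing of low values gave an estimated depth of 5.61 M to 27.8 M reads, and depth was not estimated in the other 9. In EtOH-fed mice it was 13.5 M, 7.88 M and 8.38 M in *Apoe* KO mice 2, 4 and 5, and 24.6 M in WT mouse 4. In pair-fed mice it was 5.61 M and 10.6 M in WT mice 1 and 2, and 8.52 M, 23.9 M and 27.8 M in *Apoe* KO mice 1, 3 and 4. Estimated depth was thus uneven between the groups, and its part in the differences between them was not tested. *Apoe* was 611230 to 798431 in WT mice and 8586 to 108651 in *Apoe* KO mice, which separated the genotypes as labelled. The remaining signal varied widely among the knockouts, with the lowest value in pair-fed mouse 5 and the highest in pair-fed mouse 4. Its source was not tested. EtOH-fed *Apoe* KO mouse 1 stood apart, with *Xist* at 826 against 15227 to 30379 in the other 17 mice and with the Y-linked genes *Ddx3y* at 1077 and *Eif2s3y* at 898, although the labels call every mouse female. Calls of the 41 genes, and the counts and medians of the main lists, are given with and without it. The 41 lysosomal genes were well measured: none was under 89 in any mouse, the median of their mean values was 2388 against 407.5 over all genes, and the median within-group SD was 0.18 on the log2 scale, from 0.11 for *Lamp2* to 0.41 for *Cd63*, against 0.28 over all genes. A share of calls among these genes is therefore read against a background of genes that were on average lower and more variable.

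Divided by exon length, the most abundant lysosomal transcripts of pair-fed WT liver were those of *Psap* (7107 ± 834 normalised counts per kb of exon, SD, n = 4), the precursor of the sphingolipid activator proteins, and *Ctsz* (6696 ± 350), encoding the carboxypeptidase cathepsin Z. They were followed by *Lamp1* (3890 ± 844), *Ctsb* (3358 ± 326) and *Grn* (2972 ± 239), and the ranges mean ± SD of *Psap* and *Ctsz*, of *Lamp1* and *Ctsb*, and of *Ctsb* and *Grn* overlapped. *Galc*, encoding the galactosylceramidase that is deficient in Krabbe disease, was lowest at 13.9 ± 4.14 per kb, and *Tfeb* stood at 62.4 ± 8.36. *Ctsl*, encoding the endopeptidase cathepsin L, was the gene with the largest change of level: it held rank 7 of 41 in pair-fed WT liver (2339 ± 221 per kb), rank 2 in EtOH-fed WT liver (7771 ± 1387, n = 5), rank 6 in pair-fed *Apoe* KO liver (3258 ± 570, n = 5) and rank 3 in EtOH-fed *Apoe* KO liver (9594 ± 1143, n = 4). Of the counts per kb of the 7 cathepsins, *Ctsl* made up 11.9% to 14% in pair-fed WT, 12.9% to 17% in pair-fed *Apoe* KO, 25.6% to 39.5% in EtOH-fed WT and 26.4% to 36.4% in EtOH-fed *Apoe* KO mice. Exon length was the union of all annotated exons of a gene, such as 6489 bases for *Ctsl* and 1441 for *Ctsz*. Ranks and shares between genes therefore depend on the annotation. In counts not divided by length, the pair-fed WT mean of *Ctsl* (15177) was above that of *Ctsz* (9650). All 41 genes together took 0.478% to 0.574% of the total in pair-fed WT mice, 0.551% to 0.676% in pair-fed *Apoe* KO mice, 0.614% to 0.759% in EtOH-fed WT mice and 0.765% to 0.898% in EtOH-fed *Apoe* KO mice. The last of these ranges lay above the other 3, and *Ctsl* alone weighs heavily in this sum.

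The first comparison asked how the lysosomal genes of EtOH-fed liver differed between *Apoe* KO and WT. Of the 41 genes, 7 passed an adjusted p under 0.05 with the higher level in the knockouts and 0 with the lower level, where 4.25% of all genes were higher and 0.445% lower by the same limma test (at an unadjusted p under 0.05, 23 of the 41 were higher and 0 lower, against 16.1% and 2.78% of all genes). The 7 were the protease gene *Lgmn*, the glycosidase genes *Idua*, *Man2b1* and *Hexa*, the sulfatase gene *Arsa*, and *Asah1* and *Psap* of lipid digestion. The log2 difference was above 0 for 40 of 41 genes, the exception being *Ids* (-0.23), and for 66.6% of all genes, with medians of 0.31 and 0.11. This shift of all genes was seen with the deposited scaling, and its source was not tested. Median-of-ratios size factors bring the middle of all genes near 0 by construction. When the values were rescaled by median-of-ratios size factors, the median of all genes was -0.02, calls over all genes changed from 639 higher and 67 lower to 380 higher and 126 lower, and of the lysosomal genes only *Lgmn* and *Idua* passed, both higher, with 32 of 41 above 0. Relative to all genes, the median of the 41 was 0.21 higher. A single factor per mouse moves all genes nearly alike, so this gap was bound to be the same under either scaling.

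*Lgmn* encodes legumain, the asparaginyl endopeptidase that also activates cathepsins. It was 4329, 3146, 4208 and 3745 in EtOH-fed *Apoe* KO mice 1, 2, 4 and 5, and 1512, 2159, 1450, 1873 and 1528 in EtOH-fed WT mice 1 to 5. Pair-fed WT mice had 1763, 2124, 1863 and 2081, and pair-fed *Apoe* KO mice 1960, 1990, 1749, 2898 and 2598. Every EtOH-fed *Apoe* KO mouse was thus above every other mouse of the study. The difference from EtOH-fed WT was 2.27-fold (log2 fold change 1.18, SE 0.14, limma adjusted p = 8.07e-04), it was called under all 17 alternative settings, and without mouse 1 it was 1.12 (adjusted p = 0.00522).

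*Idua* encodes alpha-L-iduronidase, which removes iduronic acid from heparan and dermatan sulfate. Its values in EtOH-fed *Apoe* KO mice lay close together, at 348, 382, 356 and 358, above the 196, 200, 231, 143 and 255 of EtOH-fed WT mice. Pair-fed WT mice had 242, 283, 232 and 346, and pair-fed *Apoe* KO mice 163, 227, 275, 299 and 300, so that the highest group did not overlap with any other. The log2 fold change between the genotypes on ethanol was 0.84 (SE 0.18, adjusted p = 0.0163), again called under all 17 alternatives, and 0.86 without mouse 1 (adjusted p = 0.0348).

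*Arsa*, encoding the arylsulfatase that desulfates sulfatide, was 1087, 1303, 1449 and 1353 in EtOH-fed *Apoe* KO mice and 602, 1110, 762, 769 and 493 in EtOH-fed WT mice. WT mouse 2 (1110) lay within the range of the knockouts and the other 4 WT mice lay below it. The log2 fold change was 0.84 (SE 0.19, adjusted p = 0.0271), and 0.92 without *Apoe* KO mouse 1 (adjusted p = 0.0334). *Arsa* was called under 10 of the 17 alternatives. The call was lost without WT mouse 1 and without *Apoe* KO mouse 2, 4 or 5, with an adjusted p of at most 0.0847.

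*Asah1* encodes acid ceramidase, which splits ceramide. It was 1854, 1793, 2444 and 1607 in EtOH-fed *Apoe* KO mice and 1411, 1472, 1078, 1224 and 1226 in EtOH-fed WT mice, with no overlap (log2 fold change 0.58, SE 0.14, adjusted p = 0.0303). In pair-fed mice it was 1590, 1369, 1462 and 1187 in WT and 1505, 1474, 1296, 1608 and 1387 in *Apoe* KO, which overlapped. The remaining calls were small, *Psap* at 0.46 (adjusted p = 0.0429), the alpha-mannosidase gene *Man2b1* at 0.46 (adjusted p = 0.0449) and *Hexa*, the alpha subunit of beta-hexosaminidase, at 0.44 (adjusted p = 0.0486). *Asah1* was called under 8, *Psap* and *Man2b1* each under 6 and *Hexa* under 5 of the 17 alternatives. Without mouse 1 the adjusted p-values of *Asah1*, *Psap*, *Man2b1* and *Hexa* were 0.0532, 0.0962, 0.107 and 0.116, which left *Lgmn*, *Idua* and *Arsa* as the 3 called genes, with 37 of 41 above 0 and a median of 0.27 (all genes 0.13). The count was 2 without WT mouse 1 or *Apoe* KO mouse 4, and 3 without WT mouse 4 or 5 or *Apoe* KO mouse 2 or 5. Calls over all genes were not counted in the fits that left out a mouse.

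**Figure D1:**
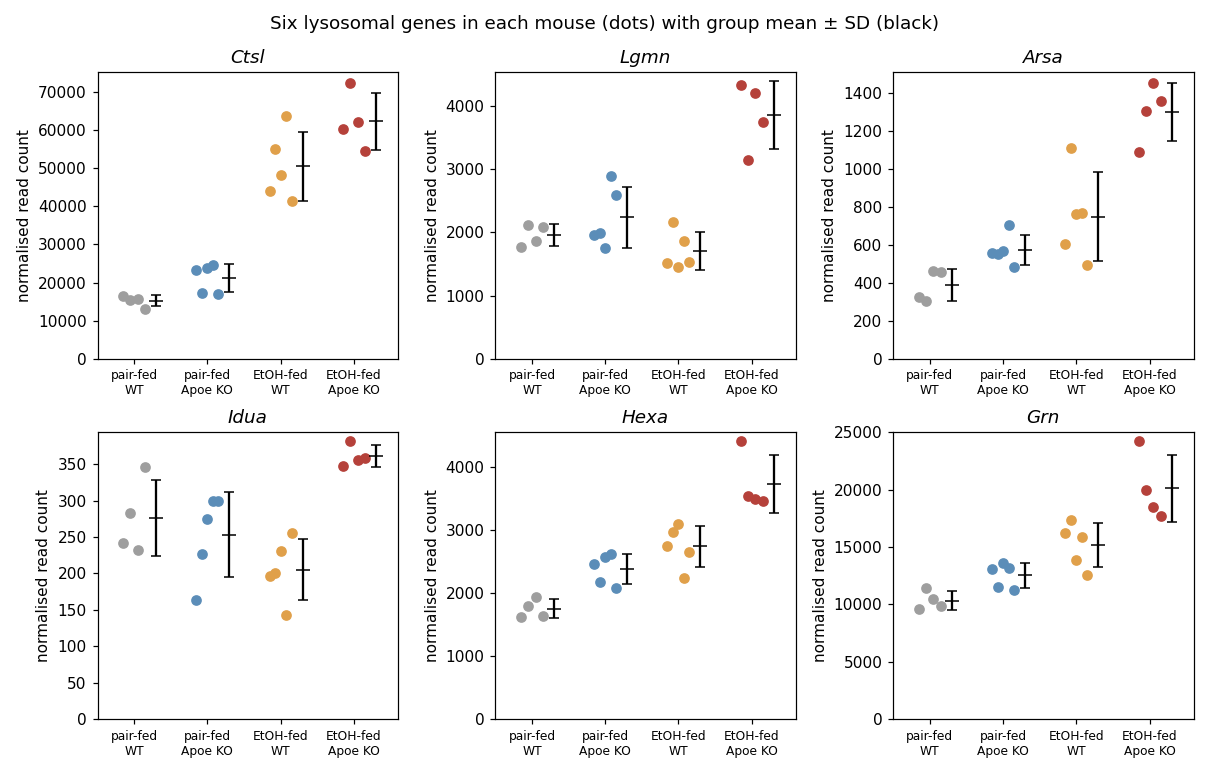
Normalised read count (linear vertical axes from 0) of *Ctsl*, *Lgmn*, *Arsa*, *Idua*, *Hexa* and *Grn* in each mouse (dots), by group, with the group mean ± SD in black. In EtOH-fed *Apoe* KO liver *Lgmn* (3146 to 4329) and *Idua* (348 to 382) lay above all other mice, whereas *Ctsl* was high in both EtOH-fed groups (41490 to 72278).

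By role, the median difference between EtOH-fed *Apoe* KO and WT liver was 0.34 for the 9 proteases, 0.40 for the 12 glycosidases, 0.38 for the 4 sulfatases, 0.22 for the 6 lipid genes and 0.27 for the 6 membrane proteins. Without mouse 1 these medians were 0.28, 0.34, 0.37, 0.20 and 0.24. The 6 membrane proteins and 2 pump genes held 0 calls (3 and 1 at an unadjusted p under 0.05). *Lamp1*, the most abundant lysosomal membrane glycoprotein transcript per kb in this list, was 14692, 14107, 14943 and 13073 in *Apoe* KO and 13639, 14103, 10432, 11785 and 10021 in WT mice (0.26, SE 0.12, adjusted p = 0.270). *Lamp2*, needed for fusion of autophagosomes with lysosomes, was 17486, 20103, 21550 and 17722 against 19415, 18626, 17919, 18823 and 16646 (0.07, SE 0.10, adjusted p = 0.789). Both sets of values overlapped, and the 95% confidence interval of the *Lamp2* difference ran from -0.16 to 0.29. *Mcoln1*, encoding the calcium channel mucolipin 1, was 1861, 1616, 1719 and 1415 against 1351, 1624, 1301, 1134 and 1314 (0.30, SE 0.12, adjusted p = 0.199). *Tfeb* was 368, 384, 373 and 408 against 369, 382, 352, 366 and 394 (0.04, 95% confidence interval -0.22 to 0.30, adjusted p = 0.903). The mRNA of this regulator therefore covered nearly the same range in both genotypes. *Cd63*, a tetraspanin of lysosomes and secretory vesicles, had the widest spread, with 810, 888, 1916 and 1207 against 486, 593, 884, 788 and 668 (0.76, SE 0.24, adjusted p = 0.0867).

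**Figure D2:**
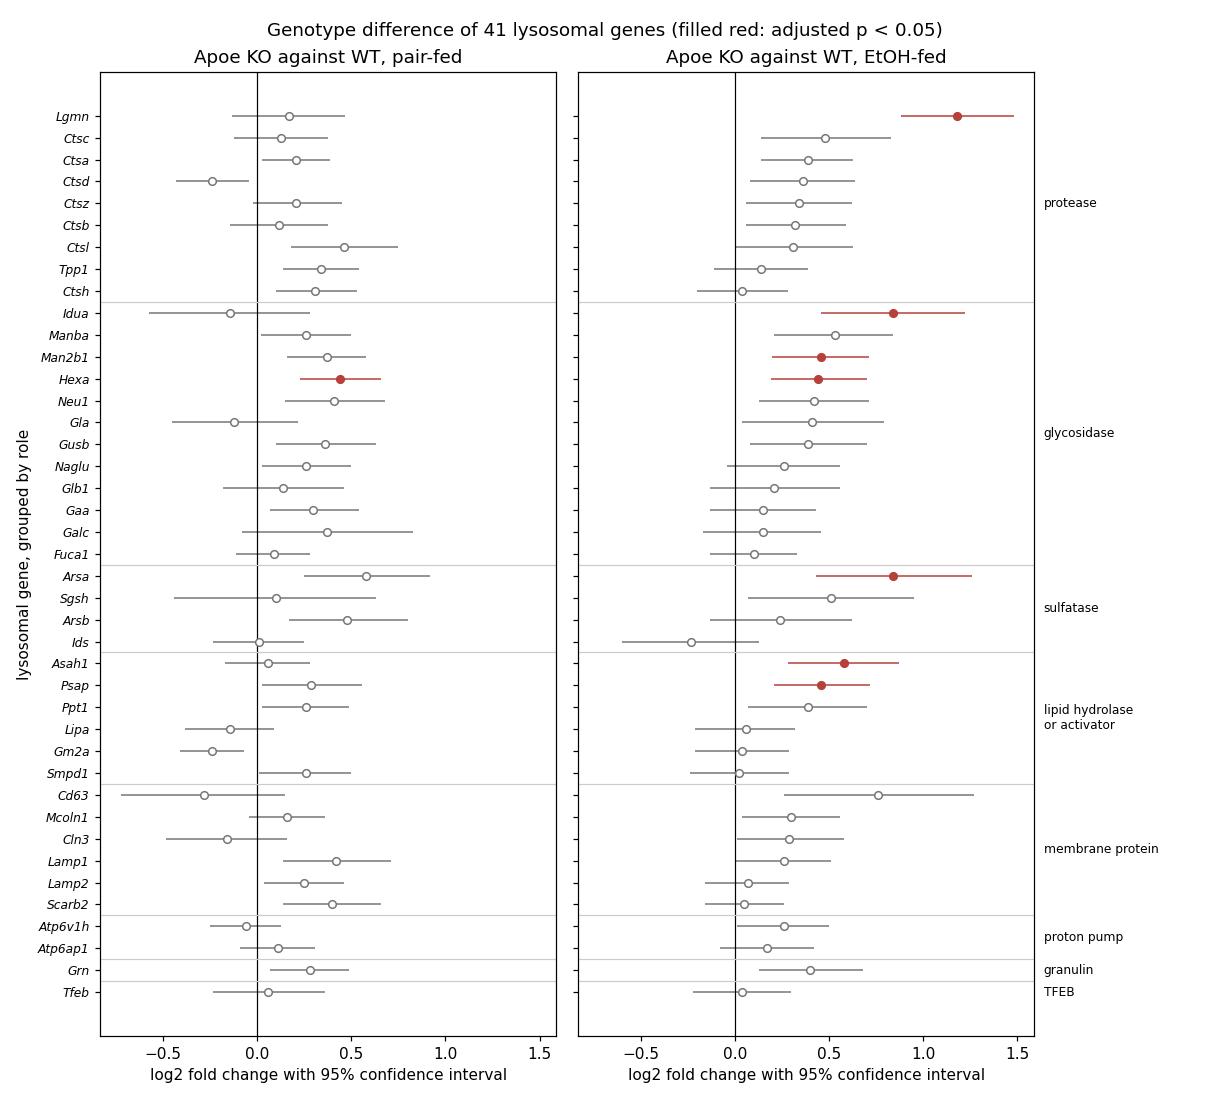
Log2 fold change of *Apoe* KO against WT with its 95% confidence interval for 41 lysosomal genes grouped by role, in pair-fed (left) and EtOH-fed (right) mice; filled red points have an adjusted p under 0.05. With ethanol 40 of 41 points lie above 0 (66.6% of all genes did) and 7 are called; without ethanol 33 lie above 0 and *Hexa* alone is called.

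Without ethanol, the question was whether loss of *Apoe* by itself went with a difference. *Hexa* was the single lysosomal gene called between pair-fed *Apoe* KO and WT mice, and it was higher; 0 were lower. Over all genes 0.870% were called higher and 0.864% lower. *Hexa* was 2464, 2170, 2566, 2610 and 2085 in *Apoe* KO and 1625, 1795, 1942 and 1629 in WT mice, with no overlap (log2 fold change 0.44, SE 0.10, adjusted p = 0.0410). This call was lost without WT mouse 1, 2 or 4 or *Apoe* KO mouse 1, 3 or 4 (adjusted p at most 0.131), and the count of called lysosomal genes was then 0. It was 5 without WT mouse 3, 2 without *Apoe* KO mouse 2 and 3 without *Apoe* KO mouse 5.

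Although few genes passed, 33 of 41 were above 0 and the median was 0.21, against -0.00 over all genes. The 12 hepatocyte markers also had a median above 0 (0.31, 9 of 12 above 0, 0 called, 6 at an unadjusted p under 0.05), while the 10 lymphocyte markers had a median of -1.02 with 0 above 0 and 0 called (5 unadjusted). Their part in the shift of the lysosomal genes was not tested. Of the 41 genes, 8 were higher in *Apoe* KO with no overlap between the groups and 2 were lower with no overlap, where 4.01% and 3.02% of all genes did so. At an unadjusted p under 0.05, 20 were higher and 2 lower, against 10.6% and 9.31% of all genes. *Man2b1* was 3928, 3505, 3570, 4018 and 3088 in *Apoe* KO mice and 2789, 2733, 3063 and 2595 in WT mice (0.37, SE 0.10, adjusted p = 0.0647). *Tpp1*, encoding the tripeptidyl peptidase that is deficient in a childhood ceroid lipofuscinosis, was 4182, 3260, 3388, 3488 and 3534 against 3037, 2757, 2825 and 2601 (0.34, SE 0.09, adjusted p = 0.0720). *Arsa* was 557, 552, 566, 704 and 482 against 323, 304, 462 and 454 (0.58, SE 0.16, adjusted p = 0.0710). All 3 were non-overlapping differences that missed the threshold.

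*Ctsd*, encoding the aspartyl protease cathepsin D, lay on the other side. It was 5482, 4562, 5087, 5862 and 5585 in pair-fed *Apoe* KO and 5878, 6220, 6495 and 6401 in pair-fed WT mice, again with no overlap (-0.24, SE 0.09, adjusted p = 0.172). *Lamp1* was 14529, 12940, 14154, 14139 and 12710 against 11202, 10106, 12844 and 7469 (0.42, SE 0.13, adjusted p = 0.111). *Lamp2* was 20493, 18432, 18794, 19054 and 19408 against 16745, 15928, 18347 and 14129 (0.25, SE 0.10, adjusted p = 0.186). Neither membrane gene passed, although the groups did not overlap for *Lamp2*. *Mcoln1* was 1983, 1627, 1846, 1630 and 1712 against 1510, 1719, 1516 and 1533 (0.16, adjusted p = 0.353), and *Tfeb* was 337, 393, 330, 349 and 435 against 317, 423, 341 and 333 (0.06, adjusted p = 0.830). Across the 41 genes, the genotype difference of pair-fed mice and that of EtOH-fed mice, which share no animals, had a Pearson r of -0.00 and a Spearman rho of 0.03, given as a description since genes are not independent replicates.

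Ethanol feeding was then compared with pair-feeding within each genotype. In WT liver 6 of 41 genes were higher with ethanol and 0 lower, against 6.19% and 6.52% of all genes. At an unadjusted p under 0.05 there were 9 and 6, against 13.7% and 14.5%. The 6 were the proteases *Ctsl* and *Ctsz*, the glycosidases *Hexa* and *Gaa*, the sulfatase *Arsa* and *Grn*. The median over the 41 was 0.08 (all genes -0.01) and 26 were above 0. Leaving out pair-fed WT mouse 2 reduced the count to 3.

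*Ctsl* differed most. It was 43874, 55099, 48061, 63618 and 41490 in EtOH-fed WT mice and 16538, 15337, 15667 and 13167 in pair-fed WT mice, a 3.29-fold difference with no overlap (log2 fold change 1.72, SE 0.14, adjusted p = 1.39e-05). In *Apoe* KO mice it was 60187, 72278, 62067 and 54495 with ethanol and 23207, 17276, 23721, 24523 and 16964 without, a 2.97-fold difference (1.57, SE 0.14, adjusted p = 1.24e-05). Both were called under all 17 alternatives. The change with ethanol did not differ detectably between the genotypes (interaction -0.15, 95% confidence interval -0.57 to 0.27, adjusted p = 0.762).

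*Grn*, whose product progranulin is cut into granulins in the lysosome, was 16261, 17398, 13902, 15840 and 12580 in EtOH-fed WT mice and 9554, 11415, 10501 and 9824 in pair-fed WT mice (0.55, SE 0.12, adjusted p = 0.00804). In *Apoe* KO mice it was 24284, 19989, 18496 and 17733 with ethanol and 13054, 11503, 13631, 13198 and 11281 without (0.68, SE 0.11, adjusted p = 7.51e-04). *Hexa* was 2740, 2969, 3091, 2241 and 2646 in EtOH-fed WT mice, above every pair-fed WT mouse (0.64, SE 0.11, adjusted p = 0.00294). In EtOH-fed *Apoe* KO mice *Hexa* was 4409, 3538, 3488 and 3457, above every pair-fed *Apoe* KO mouse (0.64, SE 0.10, adjusted p = 8.39e-04). The interaction for *Hexa* was 0.00 (95% confidence interval -0.32 to 0.32). *Arsa* rose by 0.92 in WT (SE 0.21, adjusted p = 0.0139) and by 1.18 in *Apoe* KO liver (SE 0.13, adjusted p = 5.82e-05). It was lowest in pair-fed WT mice (304 to 462) and highest in EtOH-fed *Apoe* KO mice (1087 to 1449). The WT call of *Arsa* was lost without pair-fed WT mouse 2 (adjusted p = 0.0510). *Ctsz* rose by 0.41 in WT (adjusted p = 0.0350) and 0.54 in *Apoe* KO (adjusted p = 0.00703). *Gaa*, encoding the acid alpha-glucosidase that digests glycogen, rose by 0.43 in WT (adjusted p = 0.0188), and its *Apoe* KO value was 0.27 (adjusted p = 0.159). The WT call of *Ctsz* was kept without EtOH-fed WT mouse 4 and lost when any of the other 8 mice was left out (adjusted p at most 0.0835), and that of *Gaa* was lost without pair-fed WT mouse 2 or 4 or EtOH-fed WT mouse 2 (at most 0.0585).

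In *Apoe* KO liver 15 of 41 genes were higher with ethanol and 0 lower, against 16.3% and 6.92% of all genes (18 and 3 at an unadjusted p under 0.05, against 25.4% and 10.5%). Beside *Ctsl*, *Arsa*, *Grn*, *Hexa* and *Ctsz*, which were also called in WT, these were *Cd63* (1.17), *Lgmn* (0.80), *Sgsh* (0.73), *Idua* (0.55), *Gla* (0.51), *Gusb* (0.42), *Asah1* (0.39), *Atp6v1h* (0.38), *Ctsa* (0.32) and *Ctsd* (0.31). *Sgsh* encodes a heparan sulfate sulfamidase, *Gla* the alpha-galactosidase of Fabry disease, *Gusb* beta-glucuronidase, *Ctsa* the protective protein of beta-galactosidase and neuraminidase, and *Atp6v1h* a subunit of the proton pump. *Cd63* was 810, 888, 1916 and 1207 with ethanol, above the 546, 434, 426, 618 and 514 without (SE 0.21, adjusted p = 0.00187). The median of the 41 was 0.26 and that of all genes 0.13.

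The direction of some of the smaller differences in *Apoe* KO liver depended on the scaling. Of the 41 genes, 30 were above 0 with the deposited scaling and 23 with median-of-ratios size factors. With median-of-ratios size factors, the median of all genes was 0.00, calls over all genes changed from 2446 higher and 1042 lower to 1656 higher and 1607 lower, and among the 41 genes 7 were called higher and 4 lower. The 7 were *Ctsl*, *Arsa*, *Cd63*, *Lgmn*, *Grn*, *Hexa* and *Ctsz*, and the 4 were *Ids* (-0.54), *Ctsh* (-0.39), *Smpd1* (-0.35) and *Scarb2* (-0.27), encoding iduronate sulfatase, cathepsin H, acid sphingomyelinase and the receptor that carries glucocerebrosidase to the lysosome. With the deposited scaling these 4 were -0.42, -0.27, -0.23 and -0.14, none called. Without mouse 1, 11 genes were called higher and *Ctsh* was called lower (-0.36, adjusted p = 0.0152), and the median of the 41 (0.15) lay near that of all genes (0.14). Calls over all genes were not counted in this fit, so the 11 have no background beside them. *Ctsa*, *Ctsd*, *Idua* and *Sgsh* were the genes whose call was lost without mouse 1, at adjusted p-values of 0.0596, 0.108, 0.0693 and 0.0514. Leaving out any other mouse of these groups also ended some of these calls. *Ctsa* was lost without EtOH-fed mouse 4, and *Asah1* without that mouse or pair-fed mouse 3 or 5, while *Ctsd*, *Gla*, *Idua* and *Sgsh* were each kept in 2 or 3 of the 9 fits that left out a mouse, with adjusted p-values of up to 0.108, 0.0754, 0.0886 and 0.0894.

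**Figure D3:**
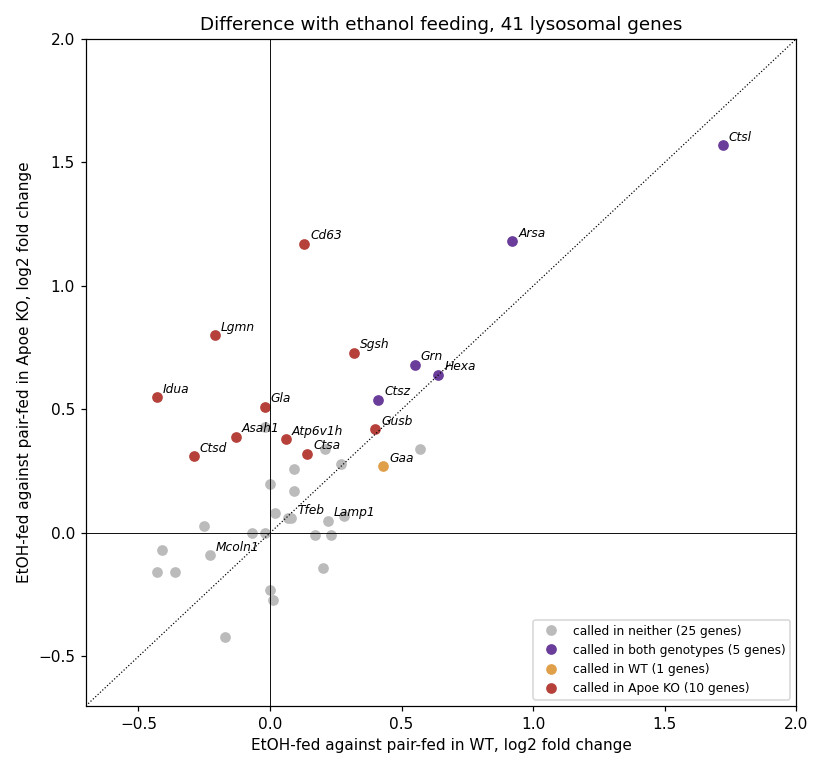
Log2 fold change with ethanol feeding in WT (horizontal) and in *Apoe* KO mice (vertical) for 41 lysosomal genes, with the line of equality dotted and colours for the genotype in which the adjusted p was under 0.05 (5 genes in both, 1 in WT, 10 in *Apoe* KO). *Ctsl* (1.72 and 1.57) lies at the upper right, and *Lgmn* (-0.21 and 0.80) and *Idua* (-0.43 and 0.55) lie at the upper left.

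Whether the change with ethanol differed between the genotypes was tested by the interaction of diet and genotype over all 18 mice. The test was passed by 2 genes, *Lgmn* and *Ctsd*, both with a more positive change in *Apoe* KO, and 0 passed in the other direction, against 2.60% and 0.239% of all genes (8 and 1 of the 41 at an unadjusted p under 0.05, against 12.7% and 3.53%). The change of *Lgmn* with ethanol was -0.21 in WT mice, which did not pass (adjusted p = 0.310), and it rose by 0.80 in *Apoe* KO mice (SE 0.15, adjusted p = 0.00202). The interaction was 1.01 (SE 0.21, adjusted p = 0.0114), called under all 25 alternatives, and 0.95 without mouse 1 (adjusted p = 0.0195).

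*Ctsd* was 7685, 6180, 6284 and 6171 in EtOH-fed *Apoe* KO mice and 5615, 5297, 5020, 3875 and 5953 in EtOH-fed WT mice. The highest value was that of mouse 1. Its change with ethanol was -0.29 in WT (adjusted p = 0.130) and 0.31 in *Apoe* KO (adjusted p = 0.0401), and the interaction was 0.60 (SE 0.16, adjusted p = 0.0436). That call held under 9 of 25 alternatives. It was lost without mouse 1 (0.52, adjusted p = 0.0779) and in 13 of the other 17 fits that left out a mouse, so that the count of genes with an interaction fell to 1 in most of them.

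*Idua* had an interaction of 0.98 (SE 0.27, adjusted p = 0.0518) and *Cd63* of 1.04 (SE 0.34, adjusted p = 0.107), which missed the threshold. The median interaction of the 41 genes was 0.12 and that of all genes 0.11, and without mouse 1 they were 0.03 and 0.12. With median-of-ratios size factors the medians were -0.02 and -0.03, calls over all genes went from 392 more positive and 36 more negative in *Apoe* KO to 294 and 84, and *Lgmn* alone of the 41 passed (0.87, adjusted p = 0.0250). The median interaction of the 41 genes was thus close to or below that of the table as a whole, and *Lgmn* was the gene among them that passed under every alternative. Over the 41 genes, the changes with ethanol in WT and in *Apoe* KO mice, which share no animals, had a Pearson r of 0.64 and a Spearman rho of 0.45, again as a description.

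*Lamp1*, *Lamp2*, *Mcoln1* and *Tfeb* passed in no comparison. With ethanol, *Lamp1* was 0.22 higher in WT (SE 0.16) and 0.05 in *Apoe* KO (SE 0.08), *Lamp2* 0.17 (SE 0.11) and -0.01 (SE 0.09), *Mcoln1* -0.23 (SE 0.11) and -0.09 (SE 0.10), and *Tfeb* 0.08 (SE 0.13) and 0.06 (SE 0.13). For *Tfeb* the 95% confidence intervals were -0.19 to 0.36 and -0.22 to 0.34. A change in the activity or location of the TFEB protein would not be seen in these values.

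Markers of liver cell types also differed between the groups. In EtOH-fed liver, 11 of 12 Kupffer cell markers were higher in *Apoe* KO than in WT (median 1.34), as were 7 of 12 listed markers of monocyte-derived macrophages (median 1.30) and 3 of 12 of stellate cells (median 0.42), against 4.25% of all genes. The 7 were *Cd68*, *Cd14*, *Fcgr1*, *Lyz2*, *Trem2*, *Cd9* and *Cx3cr1*. The study treats human CD68 protein as a marker of all macrophages, so this list is not specific to monocyte-derived cells. The Kupffer list held *C1qa*, *C1qb*, *C1qc*, *Marco* and *Folr2*. The study also assigns their human counterparts to *C1Q*+ macrophages, which it proposes enter the liver from blood. Counts and sums of the Kupffer list are therefore not specific to Kupffer cells either. The defining Kupffer cell genes *Clec4f* and *Timd4* differed by 1.12 and 1.20. The summed Kupffer markers were 22435 to 38942 in EtOH-fed *Apoe* KO mice, 11777 to 18524 in EtOH-fed WT, 18548 to 26749 in pair-fed WT and 16341 to 28694 in pair-fed *Apoe* KO mice. The summed markers of monocyte-derived macrophages were 9000 to 16745, 4358 to 6159, 6079 to 10728 and 6730 to 8641 in the same order. Without EtOH-fed *Apoe* KO mouse 1, 9 Kupffer (median 1.21), 7 monocyte-derived macrophage (1.36) and 3 stellate markers (0.45) were called, and the Kupffer sum of the other 3 mice was 22435 to 34647. The 12 hepatocyte markers had a median difference of 0.02 between the genotypes on ethanol. The part of macrophage RNA in the genotype differences of the lysosomal genes was not tested.

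With ethanol in WT mice, 5 of 12 Kupffer markers fell (median -0.71), 2 of 12 markers of monocyte-derived macrophages fell (-0.41), 7 of 10 sinusoidal endothelial markers rose (0.65) and 3 of 12 hepatocyte markers rose (0.09). Of 5 cholangiocyte markers, 2 fell (-0.31). Over all genes 6.19% rose and 6.52% fell. With ethanol in *Apoe* KO mice, 6 of 12 Kupffer (0.77), 6 of 12 monocyte-derived macrophage (0.85), 9 of 12 stellate (0.79) and 9 of 10 sinusoidal endothelial markers (1.10) rose, and without mouse 1 these counts were 5, 6, 8 and 9. With all mice, 1 of 5 cholangiocyte (0.13) and 1 of 10 lymphocyte markers (0.86) rose. Of the 12 hepatocyte markers, 1 rose and 2 fell (-0.05). Among all genes 16.3% rose and 6.92% fell. The interaction was called for 6 of 12 Kupffer markers (median 1.39), where 2.60% of all genes were called in that direction. Without mouse 1 it was called for 5 of these markers (1.29). The lowest *Lgmn* value (1450) and the lowest sum (11777) were those of EtOH-fed WT mouse 3, and the highest (4329 and 38942) those of EtOH-fed *Apoe* KO mouse 1. Between them the order differed: EtOH-fed *Apoe* KO mouse 2 had *Lgmn* at 3146 with a sum of 22435, whereas pair-fed WT mouse 4 had 2081 with a sum of 26749 and pair-fed *Apoe* KO mice 4 and 5 had 2898 and 2598 with sums of 26013 and 28694. *Ctsl* was high in EtOH-fed WT mice, the group with the lowest median of this sum. Their sums (11777 to 18524) overlapped those of pair-fed *Apoe* KO mice (16341 to 28694). In pair-fed mice, where the medians of the Kupffer and monocyte-derived macrophage markers were -0.19 and -0.06, 3 of 10 sinusoidal endothelial markers were lower in *Apoe* KO (median -0.49), against 0.864% of all genes.

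**Figure D4:**
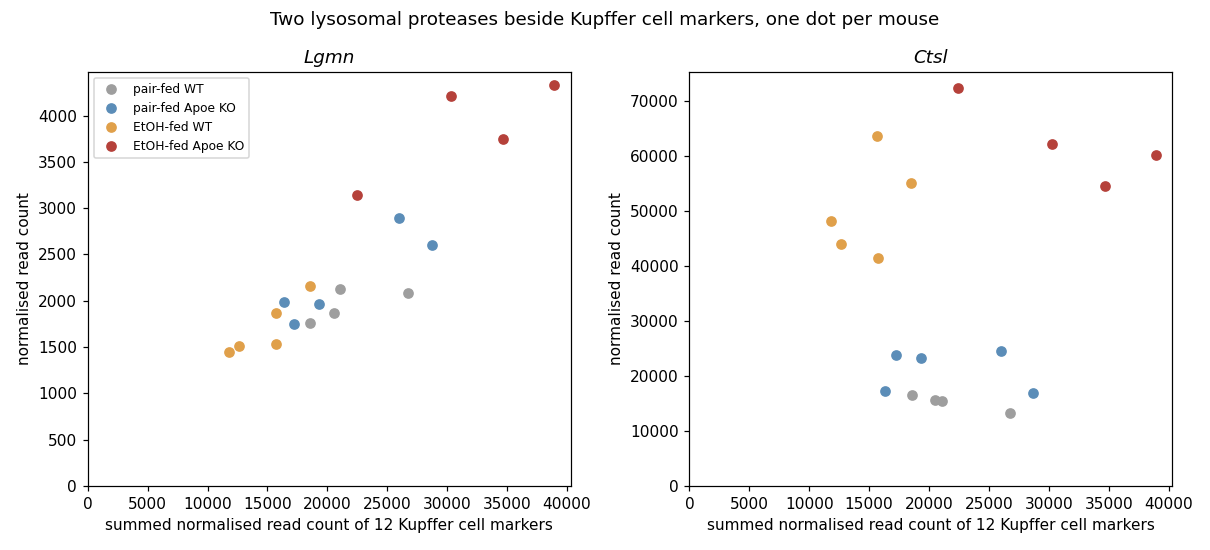
Normalised read count of *Lgmn* (left) and *Ctsl* (right) in each mouse against the summed normalised read count of 12 Kupffer cell markers, with 1 dot per mouse coloured by group. *Lgmn* was 3745 to 4329 in the 3 mice with the highest sums (30296 to 38942) and 3146 in EtOH-fed *Apoe* KO mouse 2, whose sum (22435) was below those of 3 pair-fed mice, whereas *Ctsl* was 41490 to 63618 in EtOH-fed WT mice with sums of 11777 to 18524.

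Of 111 other lysosomal genes in the table, 12 passed upward and 0 downward in the knockouts on ethanol (44 at an unadjusted p under 0.05 in either direction, median 0.25), where 4.25% and 0.445% of all genes did. With median-of-ratios size factors 6 were higher and 1 lower, and without mouse 1 there were 8 and 0. The 8 with the lowest adjusted p were *Laptm5* (1.12), *Ctss* (1.23), *Slc15a3* (1.51), *Gpnmb* (2.36), *Pla2g15* (0.72), *Atp6v1b2* (0.50), *Cln6* (0.99) and *Slc37a2* (1.05). *Ctss* encodes cathepsin S of antigen-presenting cells, *Gpnmb* a glycoprotein of lipid-laden macrophages and *Pla2g15* a lysosomal phospholipase. In pair-fed mice 8 were higher and 0 lower (36 at an unadjusted p under 0.05, median 0.15, against 0.870% and 0.864% of all genes), among them *Gpnmb* (2.03) and *Npc1* (0.67), the exporter of lysosomal cholesterol. With ethanol in WT liver 13 rose and 6 fell (median 0.10, against 6.19% and 6.52% of all genes), among them *Cln8* (1.13) and *Rragd* (1.46), with *Atp6v1g1* (-0.55) and *Pla2g15* (-0.48) among those that fell. Of the 17 other proton pump subunits, 5 rose and 2 fell in WT (median 0.22, against 0.27 in *Apoe* KO). With median-of-ratios size factors 3 of these subunits rose and 2 fell in WT. The interaction was called for 0 of these 17. With ethanol in *Apoe* KO liver 36 rose and 3 fell (median 0.19), and 9 of the 17 other proton pump subunits rose, such as *Atp6v1e1* (0.59) and *Atp6v0a1* (0.63), where 16.3% of all genes rose and 6.92% fell. With median-of-ratios size factors 21 rose and 7 fell (median 0.07), with 6 of the 17 pump subunits among those that rose, and without mouse 1 there were 30 and 3, with 7 pump subunits. The interaction passed for 5 of the 111, *Ctss* (1.53), *Slc15a3* (1.41), *Pla2g15* (0.71), *Slc11a1* (1.33) and *Slc37a2* (1.29), all with a more positive change in *Apoe* KO (2.60% of all genes). The count was 2 with median-of-ratios size factors and 2 without mouse 1. *Ctss*, whose WT value was looked up after this result was seen, fell by 0.70 with ethanol in WT and rose by 0.83 in *Apoe* KO mice.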

How the data were processed

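Bulk liver RNA-seq of 18 mice was used. Per the labels and the study's methods, the authors trimmed reads with Trimmomatic, aligned them to GRCm38 with HISAT2, counted them with featureCounts and compared groups with DESeq2. The strand and multi-mapping settings were not given in the sources used here. The deposited values per mouse are a signal, read counts scaled to nearly the same total and rounded. The table also holds the authors' own comparison as log2 fold changes, p-values and a test score, which were not used here. It had 195 repeat lines of genes listed more than once, with identical values, which were dropped, leaving 15052 genes.

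Because the values are not raw counts, limma 3.58.1 (R 4.3.3, eBayes with intensity trend) was fitted to log2(value + 1) over all genes. Fold changes on this scale understate those of low genes. Each comparison used the mice of its 2 groups, and the interaction all 18. P-values were adjusted by Benjamini-Hochberg over all genes and called under 0.05. The fit was tested on simulated data. The 41 genes, the other lists, the motifs and the tests were chosen with earlier results of these data known. Mice were described individually for the genes with the 4 lowest adjusted p-values of each comparison and for *Lamp1*, *Lamp2*, *Ctsd*, *Mcoln1* and *Tfeb*, and called genes were named. Of the other lysosomal genes, at most the 8 with the lowest adjusted p were named, and some of these are not reported here. Exon lengths, the union of all annotated exons of a gene, came from GENCODE annotation of GRCm38. Alternatives changed the scaling, low-value filter, pseudocount, groups in the fit, trend, sample weights and mouse number block, and left out each mouse. Figures used Python 3.11.15 and matplotlib 3.10.9.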

Additional observations from a re-analysis of the deposited data

Results flagged for a closer look

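In 164 sets of log2(value + 1) (41 genes in 4 groups), 8 had a mouse whose gap to its nearest neighbour was a large part of the group's range by Dixon's criterion, where chance flags about 1 in 20, or 8.2 sets. Gaps are given on this log2 scale, beside the normalised count of the mouse. In EtOH-fed *Apoe* KO mice, mouse 1 was highest for *Ctsd* (7685, gap 0.917 of the range), *Ctsh* (8748, 0.884), *Hexa* (4409, 0.905) and *Gusb* (1633, 0.840), and mouse 2 was lowest for *Gm2a* (2841, 0.842). In pair-fed WT mice, mouse 2 was highest for *Manba* (852, 0.851) and *Mcoln1* (1719, 0.883). In pair-fed *Apoe* KO mice, mouse 2 was lowest for *Ctsz* (8764, 0.719). Mouse 1 of the EtOH-fed *Apoe* KO group, with 4 of these 8, is the mouse with low *Xist*.

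The change with ethanol differed between the genotypes by the interaction test for *Lgmn* (1.01, adjusted p = 0.0114) and *Ctsd* (0.60, adjusted p = 0.0436).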

How the results depend on the processing

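The 31 called differences of single lysosomal genes were recomputed under 543 alternative values: 403 stayed called, 140 missed the threshold and 0 changed sign, and 13 of the 31 were called under every alternative tried. For EtOH-fed *Apoe* KO against WT the count of 7 became 2 with median-of-ratios size factors, 2 without the intensity trend, 2 with sample quality weights and 2 to 7 when a mouse was left out. For pair-fed *Apoe* KO against WT the count of 1 became 0 without the trend, 4 with quality weights and 0 to 5 when a mouse was left out. For ethanol it was 3 to 7 in WT and 10 to 14 in *Apoe* KO when a mouse was left out. For the interaction the count of 2 became 1 with median-of-ratios size factors, 1 without the trend and 1 to 3 when a mouse was left out. Fewer mice and less precise variances are part of these alternatives, and the cause of single lost calls was not tested. Apart from the median-of-ratios fits, calls over all genes were not counted under the alternatives, so these counts have no background beside them. Deviations of mice with the same number correlated at -0.217 to 0.23 over the 4 comparisons. With 4 pairs in each, this cannot settle whether mouse numbers pair the mice. For EtOH-fed *Apoe* KO against WT the mean was 0.135 for equal and -0.0327 for unequal numbers. In the other comparisons the means were -0.0481 to 0.0358 and -0.0088 to 0.0118. With the replicate block the pair-fed genotype count was 2, the EtOH-fed genotype count 9, the ethanol counts 5 in WT and 12 in *Apoe* KO, and the interaction count 3. The block ended the calls of *Ctsz* for ethanol in WT (adjusted p = 0.0976) and of *Ctsd*, *Gla*, *Idua*, *Sgsh* and *Atp6v1h* for ethanol in *Apoe* KO (0.0681, 0.0810, 0.0582, 0.101 and 0.0660). The shallowest mouse had an estimated 5.61 M reads, and the lowest value of these genes in it corresponded to about 21 reads.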
